A study of Homo sapiens with 4 samples.

Results

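The cyclin-dependent kinases CDK2, CDK4 and CDK6, the E cyclins CCNE1 and CCNE2, the phosphatase CDC25A, the F-box proteins SKP2 and FBXW7 and the small CDK-binding proteins CKS1B and CKS2 form the machinery that commits a cell to S phase. Every probe whose platform symbol is 1 of these 10 genes was taken, which gave 20 of the 47228 probes on the array and 10 of 20046 named genes. Of the 10 genes, 9 had a probe detected on all 4 arrays, and CCNE2 was detected on none. Transcripts of A549, a line from a human lung adenocarcinoma, were measured on Illumina HumanHT-12 BeadChips, 48 h being the time at which the labels report the knockdown. The control array held RNA of cells with non-targeting siRNA, and the other 3 arrays, together called siEPEL, held RNA of cells given siRNA 1, siRNA 2 or siRNA 3 against EPEL, a long noncoding RNA that the study links to E2F factors and proliferation. All cells received 50 nM of siRNA with a cationic lipid. Each siRNA was used on 1 array, the control has no second array, and the labels do not say that cultures were grown separately.

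In G1, CDK4 and CDK6 bind D cyclins and begin the phosphorylation of the retinoblastoma protein, which frees E2F factors. E2F factors then induce E cyclins, and cyclin E with CDK2, freed of its inhibitory phosphates by CDC25A, completes the step. SKP2, helped by CKS1B, marks the CDK inhibitor p27 for destruction, while FBXW7 marks cyclin E itself, so the 2 F-box proteins act on opposite sides of CDK2. Much of this control acts on proteins, which these arrays do not measure.

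The 4 arrays were alike in brightness, with a mean raw signal between 381 and 404 and between 35.0% and 36.2% of probes detected, that is, with a detection p under 0.01 against negative control beads. Epithelial markers (5 of 5: KRT8, KRT18, KRT19, EPCAM and CDH1) were detected on all 4 arrays, as were AKR1B10 and NQO1, both abundant in A549. AKR1C1, also typical of the line, was not detected by its 1 probe. The 3 probes of CDKN2A, a gene deleted in A549, were detected on 0 arrays. Of 9 markers of blood, endothelium and fibroblasts, 8 were detected on no array, and COL1A1, from the fibroblast list, was detected on 2 siEPEL arrays and not in control cells; its part in the results was not tested. EPEL has no probe under that name in the annotation used, in which 17107 probes carry no gene name. Whether a probe reads EPEL under another name was not tested, so the depth of the knockdown was not read from these arrays.

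Over the 9 detected genes, 5 lay below the control with all 3 siRNAs (CDK6, CCNE1, CDC25A, SKP2 and CKS1B), 2 lay above it with all 3 (CDK4 and FBXW7), and CDK2 and CKS2 lay on both sides. Each gene is represented here by its brightest tested probe. Among all 10921 genes measured in the same way, 20.3% lay below and 20.5% above with all 3 siRNAs. No gene passed the test: limma called 0 of the 15 member probes tested and 0 of 18200 probes in all (0%) at an adjusted p under 0.05. Without adjustment, 382 probes (2.10%) had a p under 0.05, 1 of them a member probe. That probe, of CDC25A, was detected on the control array alone and passed the detection filter only through it. The median log2 fold change over the 9 genes was -0.16, with a range from -0.28 (CCNE1) to 0.34 (FBXW7), beside -0.01 over all genes. In RNA of whole cultures, fewer cells near the G1/S boundary and less RNA of a gene per cell cannot be told apart.

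The ratios of these genes to the control varied with the siRNA. With siRNA 1, 7 of the 9 lay below the control and the median was -0.16. With siRNA 2 it was 6 of 9 with a median of -0.20, and with siRNA 3 it was 5 of 9 with a median of -0.03. Of all genes, 49.7%, 49.7% and 50.3% lay below the control with siRNAs 1, 2 and 3. The median absolute log2 ratio of the 9 genes was 0.26 with siRNA 1, 0.26 with siRNA 2 and 0.07 with siRNA 3, where all genes gave 0.18, 0.18 and 0.14. Whether the siRNAs differ from one another could not be tested, since each has 1 array.

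**Figure D1:**
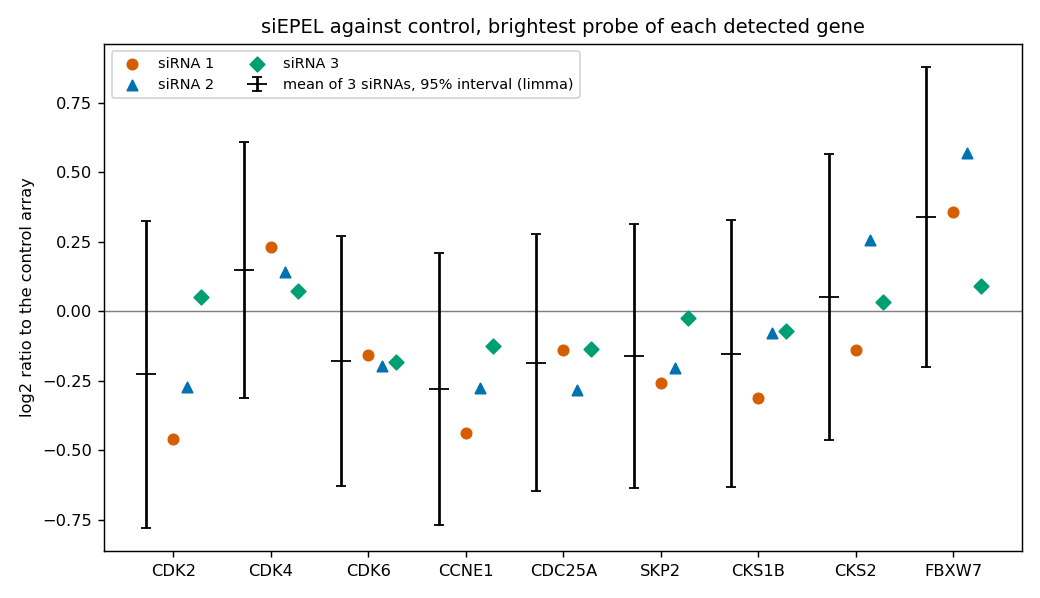
The plot gives the log2 ratio to the control array (vertical axis) of each of the 9 detected genes by its brightest probe, with 1 coloured point per siRNA and a black bar at the mean of the 3 with its 95% interval from limma. All 9 intervals cross 0, and the points of siRNA 3 lie between -0.18 and 0.09.

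CDK2, the partner of cyclin E, was the member with the lowest ratio with siRNA 1. Its brighter probe (ILMN_1665559) read 10.54 (log2 normalized level) in control cells, and 10.08, 10.27 and 10.59 with siRNAs 1, 2 and 3. siRNAs 1 and 2 were thus below the control and siRNA 3 was level with it, so the groups overlap. The ratios to the control were 0.728-fold, 0.827-fold and 1.04-fold. The mean fold of 0.854 has a 95% interval from 0.583 to 1.25 (limma, log2 fold change -0.23 ± 0.24 SE, adjusted p = 1.00). Without siRNA 1 the log2 fold change was -0.11, and without siRNA 3 it was -0.37. The second CDK2 probe (ILMN_1653443) gave the same order of signs, at 0.893-fold, 0.877-fold and 1.06-fold.

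CDK4, a G1 kinase that works with D cyclins, lay above the control on every siEPEL array. Its only probe (ILMN_1689001) read 11.59 in control cells and 11.82, 11.73 and 11.66 with siRNAs 1, 2 and 3 on the log2 scale. The control was the lowest of the 4, by 0.07 to 0.23. The folds were 1.17, 1.10 and 1.05, with a mean of 1.11 and a 95% interval from 0.806 to 1.52 (limma adjusted p = 1.00). CDK6, the related G1 kinase, lay below the control by nearly the same amount on each array. Its only probe (ILMN_1802615) read 10.33 in control cells and 10.17, 10.13 and 10.14 with the siRNAs. Those 3 levels span 0.04 on the log2 scale, where the median span over all genes was 0.32, and the control stood 0.16 above the nearest of them. The folds were 0.897, 0.872 and 0.881, and the mean of 0.883 has an interval from 0.646 to 1.21. In this fit each gene's spread is moderated towards that of all probes, and the lone control array is assumed to vary like the siEPEL arrays. CDK6 kept a log2 fold change between -0.22 and -0.17 under every alternative setting tried. Each of these settings used the same control array, so none could show whether that array deviated.

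**Figure D2:**
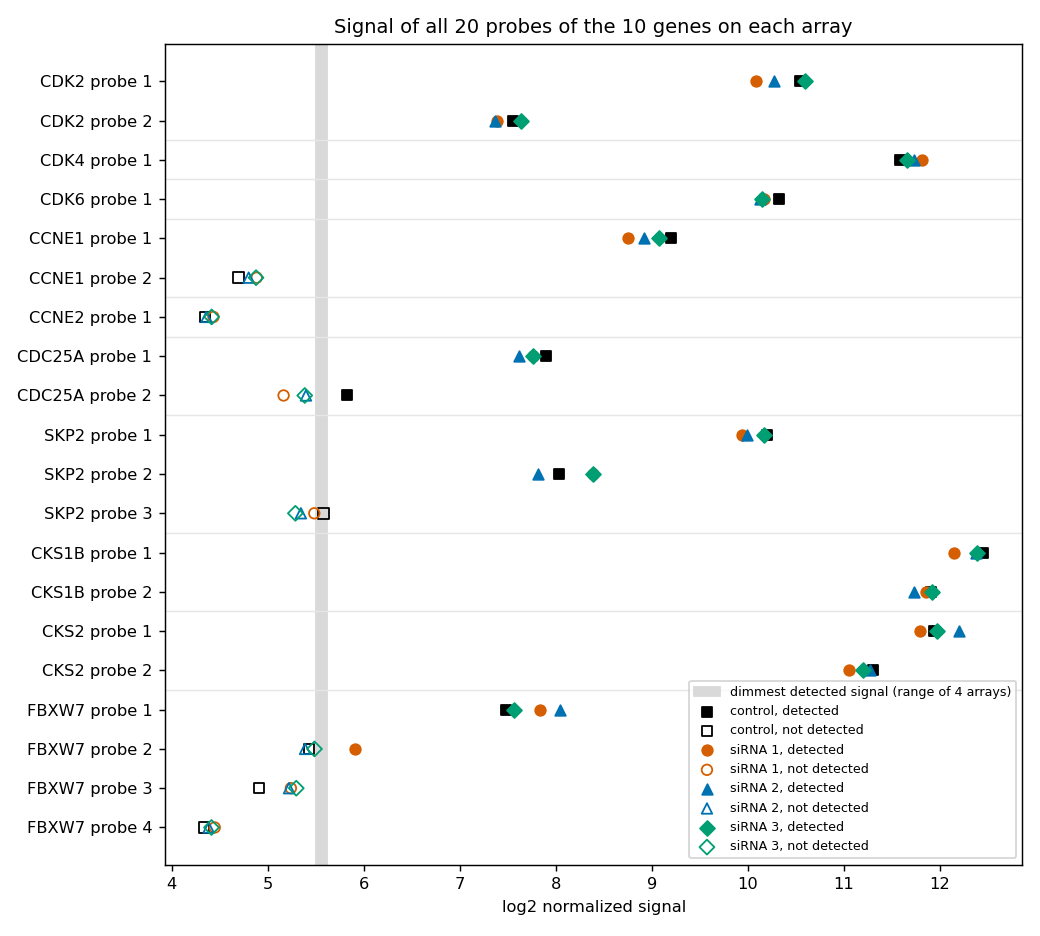
The plot shows the log2 normalized signal (horizontal axis) of all 20 probes of the 10 genes, with a black square for the control array and coloured symbols for siRNAs 1, 2 and 3; open symbols mark arrays on which the probe was not detected, and the grey band spans the dimmest detected signal of the 4 arrays. CCNE2, the dimmest probes of CCNE1, CDC25A and SKP2 and all but the brightest probe of FBXW7 carry open symbols at or left of the band on most arrays, while 13 of the 20 probes are detected on all 4.

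The E cyclins were represented by CCNE1 alone. CCNE1, whose protein activates CDK2 at the end of G1, had the lowest log2 fold change of the 9 genes. Its probe ILMN_2374425 read 9.20 in control cells and 8.76, 8.92 and 9.07 with siRNAs 1, 2 and 3, so the control was highest and the 3 siEPEL arrays spread over 0.32. The folds were 0.737, 0.826 and 0.918, placing CCNE1 at percentile 7.32, 15.4 and 27.1 of all genes on the 3 arrays. The mean fold of 0.824 has an interval from 0.586 to 1.16 (limma, log2 fold change -0.28 ± 0.22 SE, adjusted p = 1.00). The other CCNE1 probe (ILMN_1733419) was not detected on any array, with detection p-values from 0.0753 to 0.218. CCNE2, the paralog with the same partner, had 1 probe (ILMN_1651260) with raw signals of 44.4, 50.6, 44.4 and 48.0. Its detection p-values were 0.957, 0.729, 0.942 and 0.790, so its level lay within that of the negative control beads on all 4 arrays and no fold is given.

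CDC25A removes the inhibitory phosphates from CDK2 and is a known E2F target, and both of its probes lay below the control with all 3 siRNAs. The brighter probe (ILMN_1711005) read 7.90 in control cells and 7.76, 7.62 and 7.76 with the siRNAs. The siEPEL levels lay within 0.15 of one another, and the control stood above all of them. The folds were 0.908, 0.823 and 0.910, with a mean of 0.879 and an interval from 0.639 to 1.21 (limma adjusted p = 1.00). The dimmer probe (ILMN_1733396) was the 1 member probe with an unadjusted p under 0.05. It read 5.83 on the control array against 5.17, 5.40 and 5.39, with a limma p of 0.0395 that became 1.00 after adjustment over all probes. It was detected on the control array alone (detection p 0.00390, against 0.0299, 0.0169 and 0.0143), so only a bound can be given. By this probe, siEPEL was at least 1.21-fold lower than the 1 control reading, which lay near the dimmest detected signal. That bound describes the probe's readings and is not a bound for the gene. Since only the control array brought that probe past the detection filter, the choice of probes itself leaned towards a lower siEPEL side.

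The CDC25A promoter is shown because it was the only member window to hold one of the E2F-type strings searched (TTTCGCGC, TTTGGCGC, TTTCCCGC or TTTGGCGG, either strand). RefSeq promoter windows (250 bases before to 50 after a start site, GRCh38.p14) were at hand for 8 of the 10 genes, 12 windows in all, and 3.35% of all 35116 windows hold such a string. CDK2 and CCNE2 had no window and were not searched, and other forms of an E2F site were not searched for in any gene. The 250 bases before the CDC25A start lie on the minus strand of chr3:48188418-48188667. Capitals mark TTTGGCGC, which starts 44 bases before the start site, and 2 inverted copies of CCAAT, the letters of the NF-Y box.
CDC25A: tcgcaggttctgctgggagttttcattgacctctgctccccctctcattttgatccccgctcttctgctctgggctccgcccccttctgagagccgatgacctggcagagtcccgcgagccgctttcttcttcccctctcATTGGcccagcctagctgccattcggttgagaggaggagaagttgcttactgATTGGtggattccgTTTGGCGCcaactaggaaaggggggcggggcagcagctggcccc
A string match is a description of the window, and binding was not measured.

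SKP2, the F-box protein that targets p27, gave different answers by probe. The brightest probe (ILMN_1665538) read 10.20 in control cells and 9.94, 9.99 and 10.17 with siRNAs 1, 2 and 3. All 3 siEPEL levels were below the control, that of siRNA 3 by only 0.03. The folds were 0.837, 0.869 and 0.983, with a mean of 0.894 and an interval from 0.644 to 1.24 (limma adjusted p = 1.00). A second probe (ILMN_1791002), which the platform assigns to another RefSeq transcript of SKP2, read 8.04 in control cells and 8.39, 7.82 and 8.39. By this probe siRNAs 1 and 3 lay above the control and siRNA 2 below it, at 1.27-fold, 0.858-fold and 1.28-fold. The log2 ratios of the 2 probes differed by 0.61 with siRNA 1 and 0.38 with siRNA 3, and by 0.02 with siRNA 2. Over 2423 genes with 2 probes detected on all 4 arrays, the largest gap of a gene over the 3 siRNAs had a median of 0.28, and 93.8% of these genes had a smaller gap than SKP2. With the 2 probes averaged, the log2 fold change of SKP2 was -0.0011 in place of -0.16. The remaining SKP2 probe (ILMN_1801391) is assigned to the same transcript as the second probe. It was not detected on any array, with detection p-values from 0.0117 to 0.0234, just past the threshold.

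**Figure D3:**
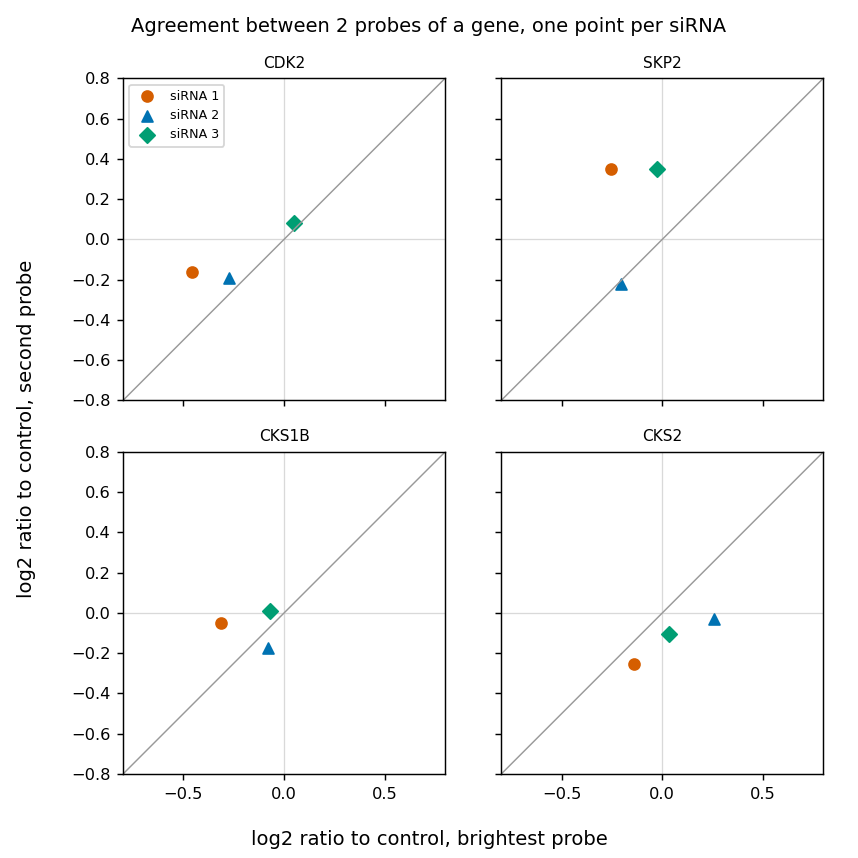
Each panel sets the log2 ratio to the control of a gene's second probe (vertical axis) against that of its brightest probe (horizontal axis), with 1 point per siRNA and a grey line of equality, for the 4 genes with 2 probes detected on all 4 arrays. SKP2 departs furthest from the line, by 0.61 with siRNA 1, while the gap stays at or under 0.30 for CDK2, CKS1B and CKS2.

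CKS1B, the cofactor that SKP2 needs to bind p27, and its paralog CKS2 lay between 0.806-fold and 1.20-fold of the control over both probes of each gene, on either side of it. The brighter CKS1B probe (ILMN_1719256) read 12.45 in control cells and 12.14, 12.38 and 12.38 with siRNAs 1, 2 and 3. The siRNA 1 array was the low one, and the other two were within 0.08 of the control. The folds were 0.806, 0.947 and 0.953, with a mean of 0.899 and an interval from 0.644 to 1.25 (limma adjusted p = 1.00), and the log2 fold change of -0.15 was -0.07 without siRNA 1. The second CKS1B probe (ILMN_2041046) gave 0.967-fold, 0.886-fold and 1.01-fold, so its lowest array was that of siRNA 2. CKS2 read 11.94 on the control array by its brighter probe (ILMN_2072296) and 11.80, 12.20 and 11.97 with the siRNAs. The control lay inside the range of the siEPEL arrays, and the mean fold was 1.04 with an interval from 0.725 to 1.48. The second CKS2 probe (ILMN_1756326) lay below the control throughout, at 0.840-fold, 0.981-fold and 0.930-fold. The sign of the CKS2 log2 fold change, 0.05 by the brighter probe, turned under median scaling (-0.02), with both probes averaged (-0.04) and without siRNA 2 (-0.05).

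The promoters of CKS1B and CKS2 are shown because they share a layout that the choice of genes did not use. Each has a CHR-type string, a sequence known from cell cycle genes expressed in G2 and M (searched as TTTGAA or TTCGAA, either strand), shortly after a CCAAT. The distance between the last CCAAT and the CHR-type letters is 19 bases in CKS1B and 18 in CKS2. The CHR-type string starts 30 bases before the start site in CKS1B and 29 bases before it in CKS2, where it is inverted. A CHR-type string occurs in 16.4% of all windows, CCAAT in 34.6%, and a CHR-type string 10 to 30 bases after a CCAAT in 0.783%, a spacing chosen after these 2 sequences were seen. No further member window had that arrangement. CKS1B lies on the plus strand of chr1:154974431-154974680 and CKS2 on the plus strand of chr9:89310945-89311194 (GRCh38.p14, RefSeq), each shown over the 250 bases before the start with CCAAT and CHR-type letters, on either strand, in capitals.
CKS1B: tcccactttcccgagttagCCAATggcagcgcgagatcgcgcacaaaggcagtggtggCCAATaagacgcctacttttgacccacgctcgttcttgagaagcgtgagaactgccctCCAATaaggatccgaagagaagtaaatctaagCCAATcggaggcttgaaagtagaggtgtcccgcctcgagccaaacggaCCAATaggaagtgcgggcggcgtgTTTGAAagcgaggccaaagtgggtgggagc
CKS2: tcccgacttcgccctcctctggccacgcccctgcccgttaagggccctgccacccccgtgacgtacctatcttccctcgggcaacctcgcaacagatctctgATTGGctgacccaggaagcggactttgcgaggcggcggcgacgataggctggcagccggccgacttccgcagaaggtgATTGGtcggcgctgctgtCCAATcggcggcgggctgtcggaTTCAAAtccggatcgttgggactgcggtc
CKS1B holds 5 copies of CCAAT in its window and CKS2 holds 3, and 3.26% of all windows hold 3 or more.

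FBXW7, the F-box protein that marks cyclin E, MYC and other growth proteins for destruction, was the member furthest above the control. Its brightest probe (ILMN_1754279) read 7.48 in control cells and 7.83, 8.05 and 7.57 with siRNAs 1, 2 and 3. The control was the lowest array, though siRNA 3 was only 0.09 above it. The folds were 1.28, 1.48 and 1.06, which put FBXW7 at percentile 91.4, 97.3 and 67.3 of all genes on the 3 arrays. The mean fold of 1.26 has an interval from 0.870 to 1.84 (limma, log2 fold change 0.34 ± 0.24 SE, adjusted p = 1.00). Without siRNA 2 the log2 fold change was 0.22, and without siRNA 3 it was 0.46. The second probe (ILMN_1668634), assigned to the same transcript, was detected with siRNA 1 alone. It read 5.43 in control cells and 5.91, 5.39 and 5.49, so it was high with siRNA 1 and not with siRNA 2, and no fold above 1 could be given as a bound. The probe assigned to a second transcript (ILMN_1655906) was detected on no array, with detection p-values from 0.0221 to 0.0714. The probe assigned to yet another transcript (ILMN_1770484) had detection p-values from 0.697 to 0.969. The FBXW7 transcripts encode proteins of different cell compartments. Only the brightest probe was detected on all 4 arrays. Whether a probe reads only the transcript it is assigned to was not tested, since no probe sequences were at hand.

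**Figure D4:**
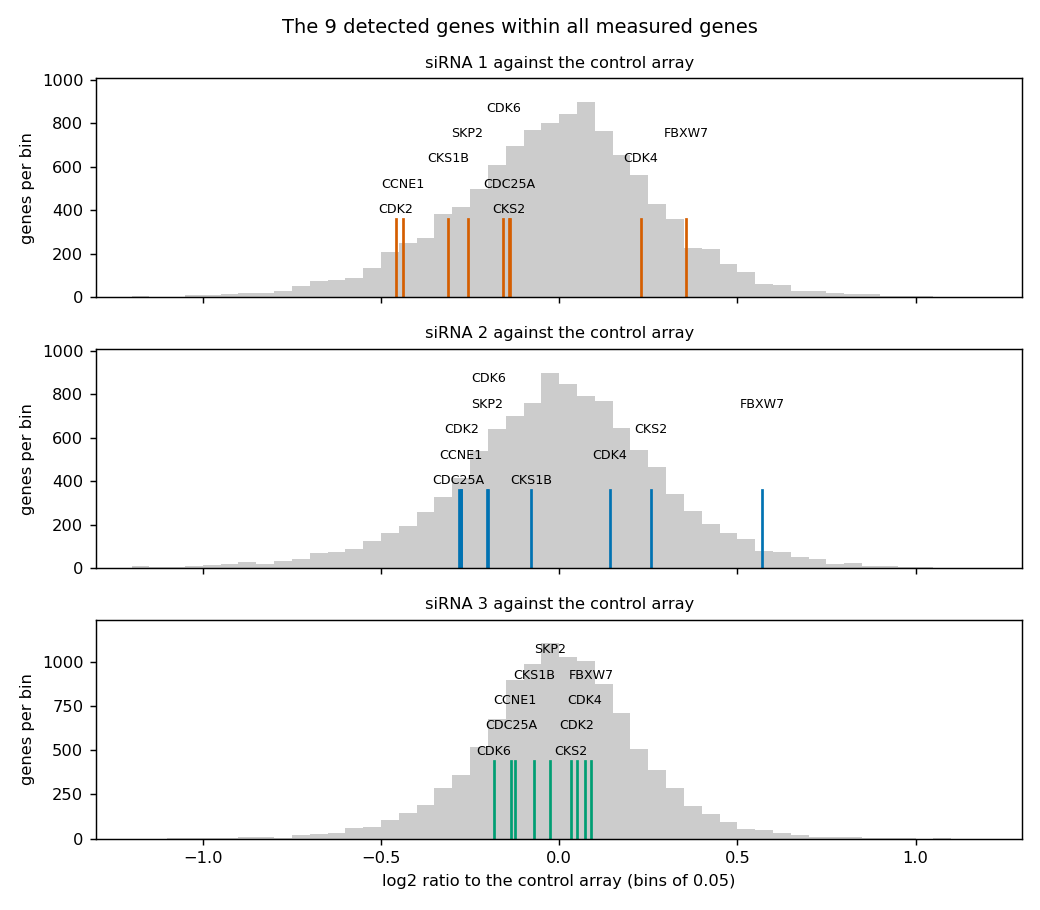
Grey bars count all 10921 measured genes by their log2 ratio to the control array (horizontal axis, bins of 0.05), in 1 panel per siRNA, and coloured lines mark the 9 detected genes. FBXW7 is the highest of the 9 in all 3 panels, and the lowest is CDK2 with siRNA 1, CDC25A with siRNA 2 and CDK6 with siRNA 3.

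By the distance between the 3 log2 ratios, the genes most like the 3 members furthest from the control were named by a fixed rule among 9775 other genes with a probe detected on all 4 arrays. For FBXW7 they were WDR37, LOC644936 and EOLA2, with distances from 0.04 to 0.05. For CCNE1 they were FBXO11, PRC1 and CAND2, with distances from 0.03 to 0.05, and for CDK2 they were SNORD4A, CTPS1 and RPGR, with 0.04 for each. The 3 ratios of a gene share 1 control array, and the named genes are the nearest of a larger number. Of the 9775 other genes, 84 lay within 0.2 of FBXW7, 288 within 0.2 of CCNE1 and 175 within 0.2 of CDK2.

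Neighbouring genes of the same pathway were read from 5 lists, and 0 of their genes passed limma's test in either direction. The counts below are of genes detected in control cells and with at least 1 siRNA, and over all 10154 such genes 21.2% lay below and 19.3% above the control with all 3 siRNAs, with a median log2 fold change of -0.01. The 9 genes listed for CDK activation and inhibitory phosphorylation, the kinase gene CDK1 itself among them, were all measured. Of these, 6 lay below the control with all 3 siRNAs (21.2% of all genes) and 0 above (19.3% of all genes). Their median log2 fold change was -0.21. The 2 furthest were CCNA2, the cyclin that takes over CDK2 in S phase (-0.35 ± 0.26 SE), and CDK1, the mitotic kinase (-0.31 ± 0.21). WEE1, which inhibits CDKs, had ratios of -0.68, 0.12 and -0.07 and CCNH, a subunit of the CDK-activating kinase, of 0.28, 0.74 and -0.10; both were chosen after their values were seen.

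The SCF ubiquitin ligase is the enzyme that SKP2 and FBXW7 serve as substrate receptors, and its core genes lay on either side of the control. Of 11 listed genes 9 were measured on both sides, 1 below with all 3 siRNAs (21.2% of all genes) and 3 above (19.3%), with a median log2 fold change of 0.08. USP28, a deubiquitinase, was detected with siRNA 3 alone and is not counted. UBE2R2, a ubiquitin-conjugating enzyme, was at 0.37 ± 0.23 (SE) and CUL1, the scaffold, at -0.14 ± 0.22. Genes of proteins known to be degraded through SKP2 or FBXW7 (10 of 10 measured) had 2 below and 2 above, near the shares over all genes, and a median of -0.04. CDT1, a loader of the replicative helicase that SKP2 targets, was at -0.38 ± 0.23, and the transcription factor gene KLF5 was at 0.29 ± 0.21.

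Among the D cyclins and CDK inhibitors, 5 of 10 were measured on both sides, 0 below and 2 above with all 3 siRNAs (21.2% and 19.3% of all genes), and the median was -0.01. CDKN1A, the p21 inhibitor, was at 0.48 ± 0.22 (SE), and CDKN1B, which encodes the p27 that SKP2 targets, had ratios of 0.22, 0.28 and 0.04. CCND2 was detected with siRNA 2 alone, so it has no fold and is not counted. Of 5 partners of the APC/C, the ligase that removes SKP2 and CKS1B in G1, 3 were measured and all 3 lay below the control with every siRNA, as did 21.2% of all genes. FBXO5, an inhibitor of the APC/C, was at -0.31 ± 0.22, and UBE2C, its ubiquitin-conjugating enzyme, at -0.24 ± 0.21.

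**Figure D5:**
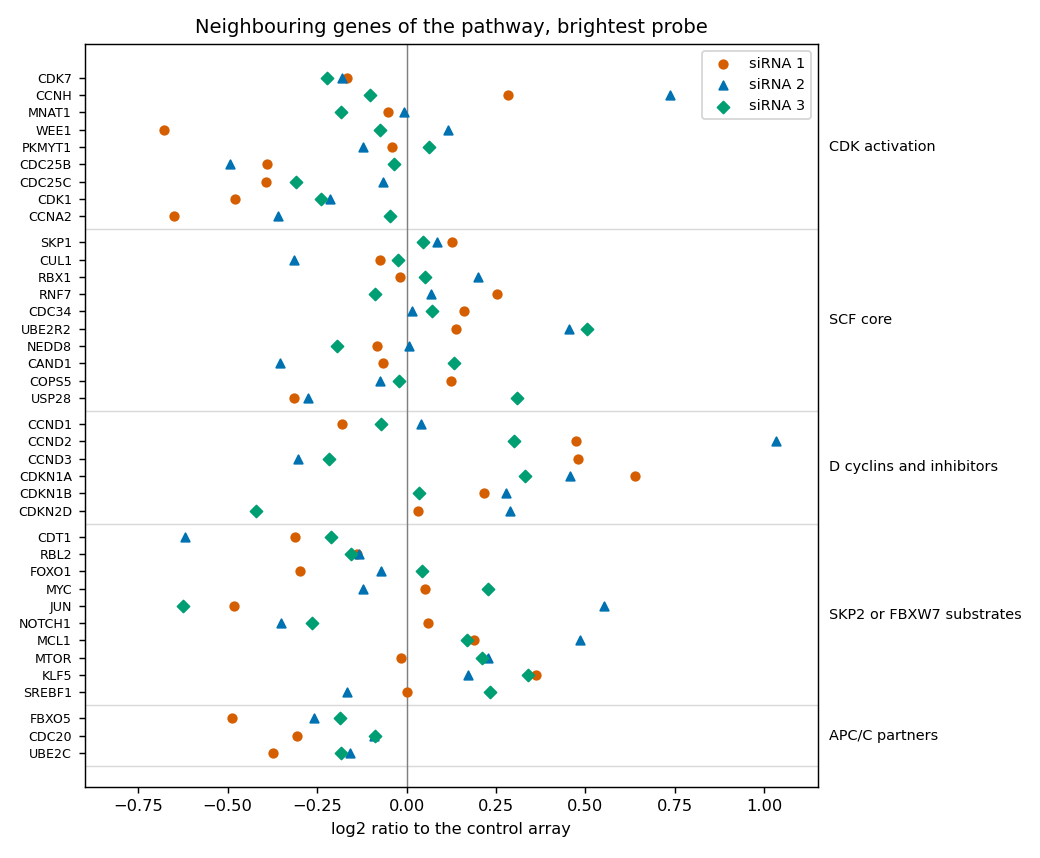
The plot gives the log2 ratio to the control array (horizontal axis) of each measured gene of the 5 neighbouring lists by its brightest probe, with 1 symbol per siRNA. The genes of CDK activation and of the APC/C lie mostly left of 0, while those of the SCF core lie around it; CCND2 and USP28 were undetected in control cells, so their points are not folds.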

How the data were processed

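Total RNA of A549 cells was amplified to biotin-labelled cRNA and hybridized to 4 BeadChips, per the labels' protocols. The intensities the authors deposited are mean bead signals, linear and neither background-corrected nor normalized, and BeadStudio is the tool named in the submitters' processing notes. The detection p-values, deposited per the file headers in 4 columns of 1 name, move in steps of 1 in 770. Each was read with the signal on its left; it rose with that signal at 0 of the steps between ranked probes, and at 16440 to 17176 with any other array's signal. A second table holds the authors' processed intensities, on a linear scale after background subtraction (each array has 12911 to 12941 negative values), with medians from 10.7 to 10.8; the sources used here do not state how it was made, and it served as an alternative. No 2 arrays held the same values (correlations from 0.993 to 0.995), and the files name no slide or scan, so no batch was tested.

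The raw table was put through the neqc function (limma 3.58.1, R 4.3.3: normexp from the detection p-values, quantile normalization, offset 16, log2), which understates changes of dim probes. Of 47228 probes, 18200 reached a detection p under 0.01 on 1 array or more; these were fitted with lmFit and eBayes, siEPEL against control, 2-sided, Benjamini-Hochberg adjusted over all of them (threshold 0.05), with 2 residual and 6.83 prior degrees of freedom. The residual spread behind the p-values comes only from the 3 siEPEL arrays, each with a different siRNA, and the control array adds none. Differences between the siRNAs and technical differences cannot be told apart in that spread. Probe symbols came from the platform annotation, in which a RefSeq table of GRCh38.p14 changed 0; gene coordinates are left out because the files state no build. A bound compares the detected group with the dimmest detected signal of each undetected array, or with the probe itself where brighter. The number of arrays limits the precision. All 10 genes are named, with up to 2 genes per neighbouring list, those furthest from the control on the same side with all 3 siRNAs; CDKN1B, WEE1 and CCNH were added after their values were seen. The genes and lists were chosen with earlier results of these data known. Alternatives were another background correction, normalization, offset, detection filter, prior, threshold or probe summary, and leaving out each siRNA.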

Additional observations from a re-analysis of the deposited data

How the results depend on the processing

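Of 13 alternative settings, 12 gave a count of called probes, and in each of those 12 limma called 0 probes and 0 member probes; averaging a gene's probes gave gene values only, those of CDC25A and FBXW7 each with a probe detected on 1 array. The smallest adjusted p of a member gene was 1.00. At an unadjusted p under 0.05 the 382 of 18200 probes became 249 without background correction and 253 with an offset of 50, of the same 18200. They became 216 of 15517 among probes detected on all 4 arrays, and 1863 of 47228 without the detection filter. The median log2 fold change of the members lay between -0.20 and -0.11, which are also its limits when 1 siRNA was left out. The count of genes below the control with every siRNA ran from 4 to 6 and that above from 2 to 3. These 2 counts were recomputed as an alternative chosen after seeing the data. The 4 below came with probes averaged (20.1% of all genes below). The 6 came without siRNA 3, where only 2 siRNAs had to agree and 29.9% of all genes lay below. The 3 above came without siRNA 1 (30.4% of all genes above). It also came without the detection filter (22.6%), which adds the undetected CCNE2. Of 108 recomputed gene values 3 changed sign, all of CKS2: -0.025 under median scaling, -0.039 with probes averaged, and -0.054 without siRNA 2, the lowest of a range to 0.15 when 1 siRNA was left out; the cause was not tested. No paired analysis was possible because the control has 1 array, to which the labels give no replicate number. With 1 control array, a deviation of that array and an effect of all 3 siRNAs cannot be told apart. Dim probes (CCNE2, and all but the brightest probe of FBXW7) were too close to background for a fold.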
